A study of Mus musculus with 32 samples.

Results

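GR peaks that lay outside vehicle accessible sites, in a dexamethasone site that overlapped one, were examined: 231 of the 11666 peaks of the glucocorticoid receptor (GR) in mouse liver. They were chosen by position from the deposited interval lists. Each overlapped no DNase I hypersensitive site (DHS) of vehicle livers, overlapped a DHS of dexamethasone livers by at least 1 bp, and every dexamethasone DHS it overlapped itself overlapped a vehicle DHS. A dexamethasone DHS that overlaps a vehicle DHS is called shared here, and the stretch of it that reaches beyond the vehicle interval is called an extension. An overlap of 1 bp was enough, so the term does not mean that the dexamethasone DHS covered the vehicle DHS as a whole. The remaining GR peaks fell in vehicle DHS (9236), in dexamethasone DHS that shared no base with a vehicle DHS (dex-only DHS, 1819) or in no DHS (380).

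The tissue was bulk liver of 8 week old male C57BL/6 mice. The dexamethasone group was adrenalectomized and injected intraperitoneally with a dexamethasone-cyclodextrin complex at 1 mg/kg in 300 ul of saline, with a time of 1 h in the series' design text. The vehicle group was likewise adrenalectomized and received cyclodextrin alone in the same volume. Each group had 2 samples per assay, and the lists used here are 63473 DHS and 25392 C/EBPβ peaks of dexamethasone livers, 56794 DHS and 22714 C/EBPβ peaks of vehicle livers, and 1 list of GR peaks whose treatment is not named. The lists hold positions in the mm9 genome and no signal, so depth is unknown and no difference between treatments has a replicate check. In bulk liver, a site open in more cells and a site more open in each cell cannot be told apart. The series' samples given adenovirus, with GFP or a dominant-negative C/EBP, were not analysed here.

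GR is a nuclear receptor that rests in the cytoplasm and enters the nucleus when it binds glucocorticoid. There it binds DNA and recruits cofactors and remodelling enzymes, and DNase I then often cuts the site more readily. Adrenalectomy removes the main source of the animal's own corticosterone. C/EBPβ belongs to the basic leucine zipper family. It is abundant in hepatocytes, where it regulates metabolic and acute-phase genes, and the series' title names the part that C/EBP plays in chromatin accessibility and in GR recruitment.

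The extensions were of the order of the vehicle site itself in length. Of the 231 GR peaks, 220 (95.2%) lay in a flank beyond the outer edge of the vehicle DHS, and 11 (4.76%) lay in a gap between vehicle DHS that 1 dexamethasone DHS joined. The extensions had a median length of 535 bp (quartiles 443 and 678 bp), against a median of 651 bp for the vehicle DHS beside them. In 74 cases (32.0%) the extension was at least as long as the vehicle DHS. The dexamethasone DHS as a whole had a median width of 1232 bp (quartiles 1061 and 1478 bp). For comparison, the dex-only DHS that held the 1819 GR peaks had a median width of 621 bp, in the range of the extensions. All of these widths follow from the rule that chose the peaks and are given as a description, with no test.

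The edge away from the GR peak was set beside the edge on the GR side, which the rule requires to lie beyond the vehicle DHS. The rule does not place the opposite edge, except in 3 DHS with GR peaks of the class on both sides of the vehicle DHS. Among the 220 flank cases, the median outward shift of the dexamethasone edge was 537 bp on the GR side and 30 bp on the opposite side (quartiles -17.3 and 91.3 bp). That the GR side had the larger shift in 213 of the 220 (96.8%) follows from how the peaks were chosen and is no finding. The opposite edge lay within 50 bp of its vehicle position in 107 (48.6%), and it was farther out than the vehicle edge in 149 (67.7%) and farther in in 69 (31.4%). In 13 of the 220 it lay more than 250 bp farther in, at most 1358 bp. There the dexamethasone DHS left a large part of the vehicle DHS uncovered, as at GR9860 (-568 bp, vehicle DHS of 569 bp). Such cases are nearer to abutting sites than to a vehicle DHS that grew. At shared DHS with GR peaks only in the vehicle part, the median shift over both sides was 27 bp (17618 edges), and at shared DHS without GR it was -5 bp (78722 edges). Of these edges, 63.6% and 45.8% were farther out, and 35.2% and 52.5% farther in. The 67.7% and 31.4% of the opposite edges are thus near the shares at DHS with GR in the vehicle part, which was not tested. An outward shift of 150 bp or more was found at 13.6% of the opposite edges (30 of 220), 10.7% of edges of DHS with GR in the vehicle part and 3.84% of edges of DHS without GR, with no test. The 30 include the edges of those 3 DHS. The opposite edge of GR8300 and GR8301 (2456 bp), which share a DHS, was counted for each. The 13.6% is thus too high for edges that the rule left free, and no excess over 10.7% is read from it.

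**Figure D1:**
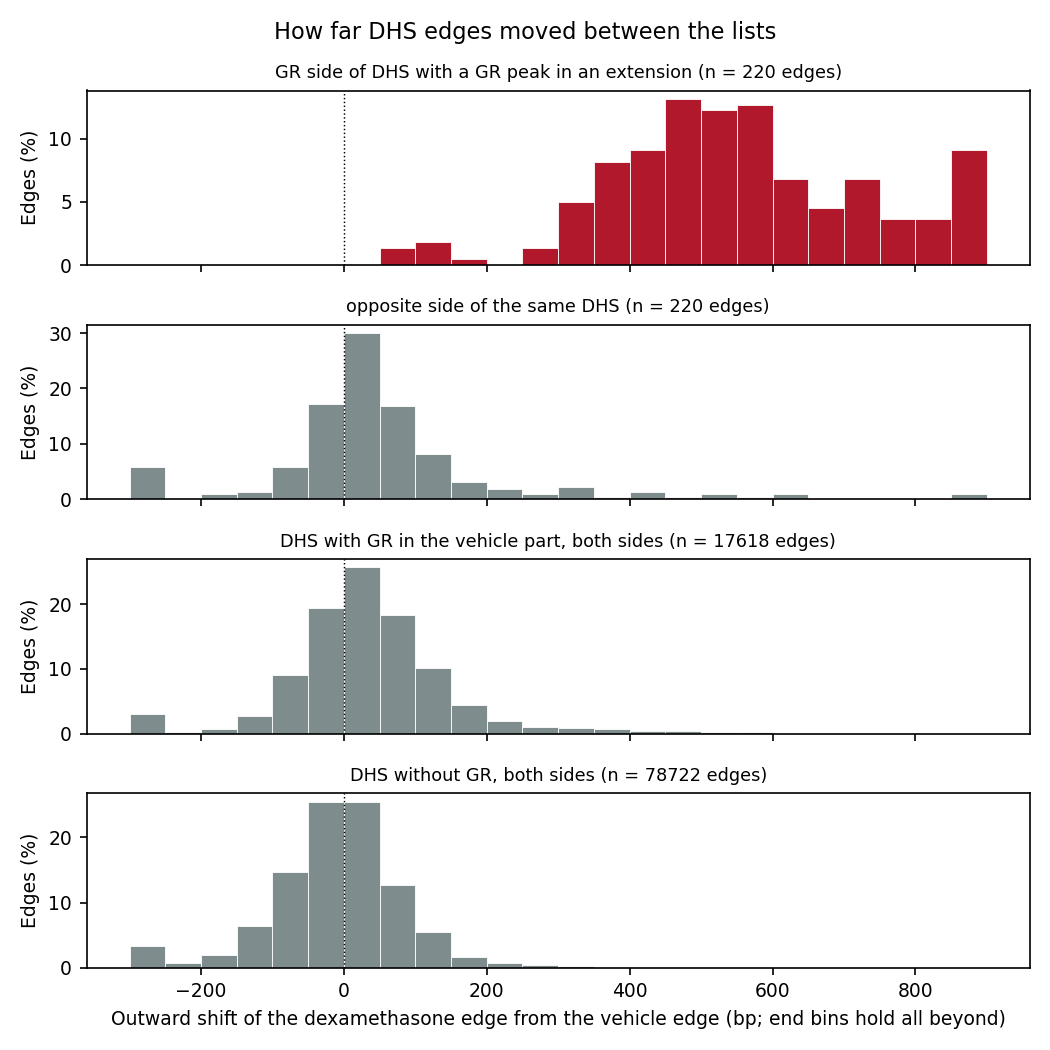
Outward shift of the dexamethasone DHS edge from the vehicle DHS edge in bp (x axis; bins of 50 bp, the end bins holding all values beyond) against the share of edges in % (y axis), for 4 sets of edges. On the GR side of the 220 flank cases the shifts centre on a median of 537 bp, while on the opposite side of the same DHS the median is 30 bp and at DHS without GR -5 bp. The opposite edges include those of 3 DHS with a GR peak of the class on each side.

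The place of the GR peak within the extension comes from the positions that the rule used and is a description, with no test. The peak was contained whole in the dexamethasone DHS in 223 of 231 cases (96.5%). The distance from the GR peak to the vehicle DHS had a median of 145 bp (quartiles 60 and 233 bp), and 146 peaks (63.2%) were 100 bp or more away. The GR centre lay a median of 313 bp from the outer edge of the dexamethasone DHS. In dex-only DHS the GR centre lay a median of 269 bp from the nearer edge of the DHS (quartiles 224 and 312 bp). On the flanks, the GR centre stood at a median of 0.43 of the way from the vehicle edge (0) to the outer edge (1).

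Every GR peak of the list is 150 bp wide, and peaks are named here by the running number of the deposited list, with mm9 positions as deposited. The peak farthest from its vehicle DHS was GR2869 on chromosome 4 (132657759 to 132657909), 1568 bp from a vehicle DHS of 564 bp that reached 1946 bp farther in the dexamethasone list. GR8300 on chromosome 12 (105632982 to 105633132) followed at 1351 bp, GR8546 on chromosome 13 at 701 bp, GR6289 on chromosome 9 at 685 bp and GR4586 on chromosome 7 at 637 bp. None of these 5 peaks overlapped C/EBPβ of either list, where 163 of all 231 members (70.6%) had none. The longest extensions were those of GR5593 on chromosome 8 (3302 bp, a gap between 2 vehicle DHS), GR10787 on chromosome 18 (2323 bp), GR2869 (1946 bp), GR1571 on chromosome 2 (1652 bp, a gap) and GR8300 (1578 bp). None of these peaks had C/EBPβ either, but GR2869 and GR8300 are in both sets. Sets of 5 are too small to differ from the 70.6% of all members, and no link with distance or length is read from them.

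At the threshold of the rule, membership turned on few bases. The members closest to a vehicle DHS were GR9880 on chromosome 16, which abutted it at 0 bp, and GR6553 and GR6569 on chromosome 10, each 1 bp away. The GR peaks that fell just on the other side were GR6518 on chromosome 10, GR7184 on chromosome 11 and GR3237 on chromosome 5, each of which shared 1 bp with a vehicle DHS. In all, 47 members lay within 50 bp of the vehicle DHS, and 64 GR peaks overlapped a vehicle DHS by 50 bp or less. None of the 3 members or the 3 peaks beside them had a vehicle C/EBPβ peak, and of the 6 only GR3237 had a dexamethasone one.

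**Figure D2:**
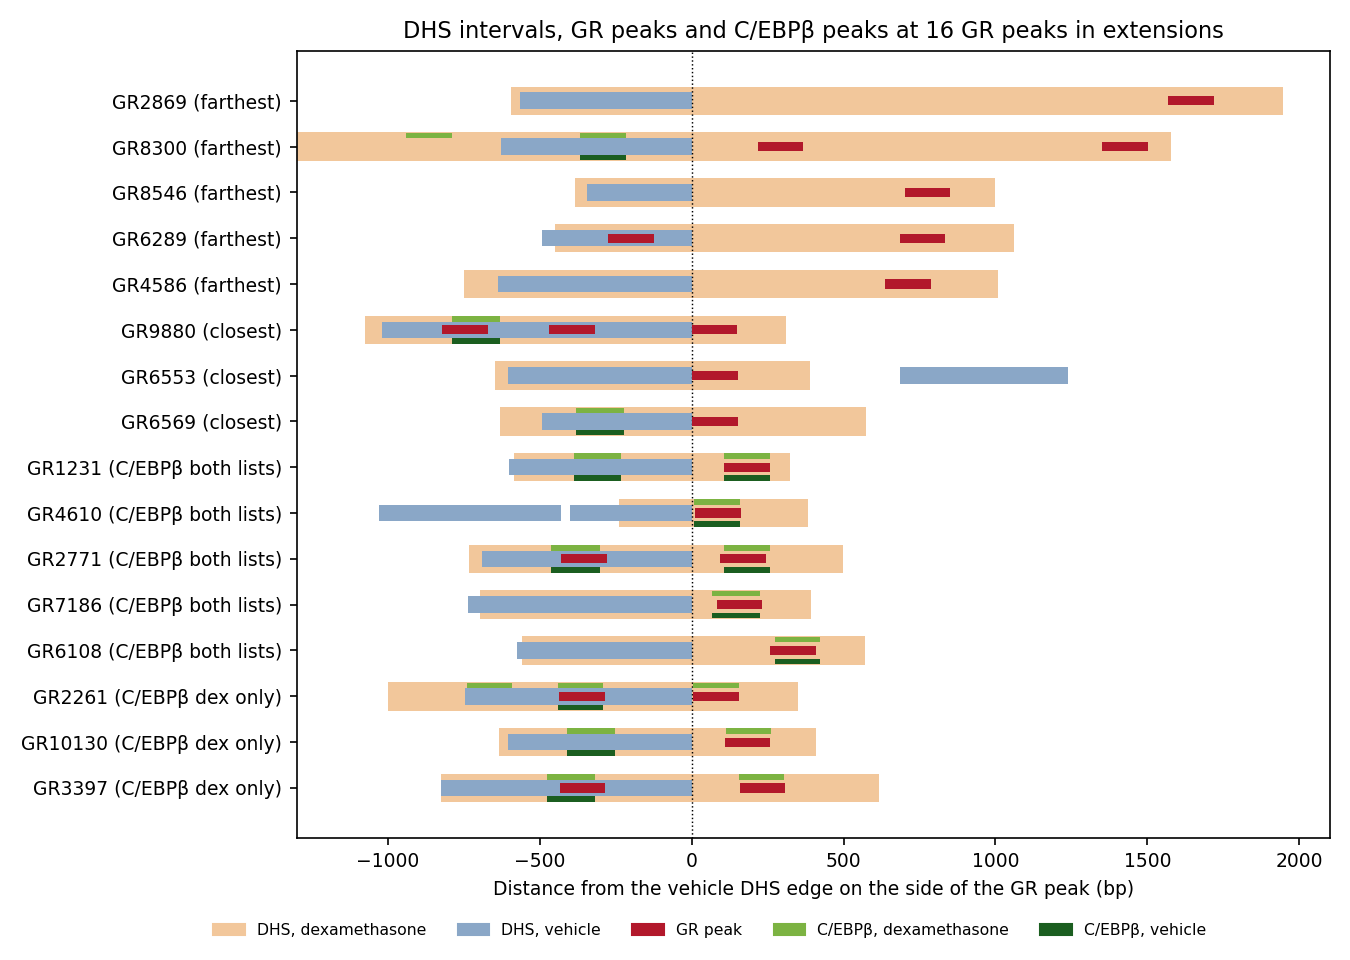
Intervals at 16 GR peaks in flanks, drawn to scale against the distance in bp from the vehicle DHS edge on the side of the GR peak (x axis); each row is 1 GR peak with its dexamethasone DHS, vehicle DHS, GR peaks and C/EBPβ peaks of both lists, chosen as the farthest from or closest to the vehicle DHS or as those best centred on C/EBPβ. The dexamethasone DHS reaches past the vehicle edge in every row, from 310 bp at GR9880 to 1946 bp at GR2869, and the DHS of GR8300 runs on beyond the left limit of the plot.

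C/EBPβ was seldom present at these GR peaks before hormone, and a gained peak was more common. Of the 231, 14 (6.06%, 95% Wilson interval 3.64 to 9.91) overlapped vehicle C/EBPβ, where 50.4% of all GR peaks did. A dexamethasone C/EBPβ peak was found at 68 (29.4%, 23.9 to 35.6), against 62.0% of all GR peaks. The 68 comprised the same 14, whose C/EBPβ peak was in both lists, and 54 (23.4%, 18.4 to 29.2) whose peak was in the dexamethasone list only, here called gained. Of all GR peaks 11.9% had a gained C/EBPβ peak, but more of them had vehicle C/EBPβ and could not gain it. Among peaks without vehicle C/EBPβ the gained shares were 24.9% for members and 24.0% for all GR peaks. No member had C/EBPβ in the vehicle list only, which allows a share of up to 1.30% (3 counts of 231, with a Wilson upper limit of 1.64%). In vehicle DHS 37 of 9236 GR peaks (0.401%) had it, and in dex-only DHS or no DHS none did. Its lack among members is thus no trait of the class. C/EBPβ of either list was lacking at 163 members (70.6%, 64.4 to 76.1), where 37.6% of all GR peaks had none.

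C/EBPβ at GR peaks in extensions was close in share to that in dex-only DHS and far below that in vehicle DHS. The vehicle C/EBPβ share was 6.06% in extensions and 7.92% in dex-only DHS (144 of 1819), an odds ratio of 0.75 (95% Woolf interval 0.426 to 1.32) that missed the threshold (Fisher's exact test, two-sided, p = 0.361, adjusted p = 0.406 by Benjamini-Hochberg over 9 odds ratios). Of the GR peaks in vehicle DHS, 5713 of 9236 (61.9%) had vehicle C/EBPβ, and against them the odds ratio was 0.0398 (interval 0.0231 to 0.0684) and passed the threshold (Fisher p = 7.22e-71, adjusted p = 6.50e-70). In the vehicle C/EBPβ list, 82.9% of the 22714 intervals touched a vehicle DHS, and the part of this in the low share was not tested. The dexamethasone C/EBPβ share of 29.4% compared with 27.5% in dex-only DHS (500 of 1819, odds ratio 1.10, 0.814 to 1.49, Fisher p = 0.533, adjusted p = 0.533). It compared with 71.8% in vehicle DHS (6636 of 9236, odds ratio 0.163, 0.123 to 0.218, Fisher p = 1.69e-39, adjusted p = 7.60e-39).

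These intervals leave room for differences between extensions and dex-only DHS that the peak numbers could not show. Among the peaks that lacked vehicle C/EBPβ and could thus gain one, a gained peak was found at 54 of 217 in extensions (24.9%, 19.6 to 31.0) and at 356 of 1675 in dex-only DHS (21.3%, 19.4 to 23.3). Of all GR peaks without vehicle C/EBPβ 24.0% had gained it. This gave an odds ratio of 1.23 (interval 0.883 to 1.71), which missed the threshold (Fisher p = 0.221, adjusted p = 0.284). How C/EBPβ was assigned mattered for the 3 comparisons with dex-only DHS. Counted within 500 bp of the GR centre in place of overlap, vehicle C/EBPβ was at 19.5% in extensions and 9.07% in dex-only DHS (odds ratio 2.43, Fisher p = 8.10e-06). On the same count, dexamethasone C/EBPβ was at 44.2% and 29.8% (odds ratio 1.86, Fisher p = 1.63e-05), and gained C/EBPβ, among peaks with none of the vehicle list, at 30.6% and 22.9% (odds ratio 1.49, Fisher p = 0.0226). A radius of 500 bp reached the adjoining vehicle DHS from 218 of the 231 centres in extensions, while 79 of the 1819 GR centres in dex-only DHS (4.34%) were within 500 bp of a vehicle DHS edge.

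**Figure D3:**
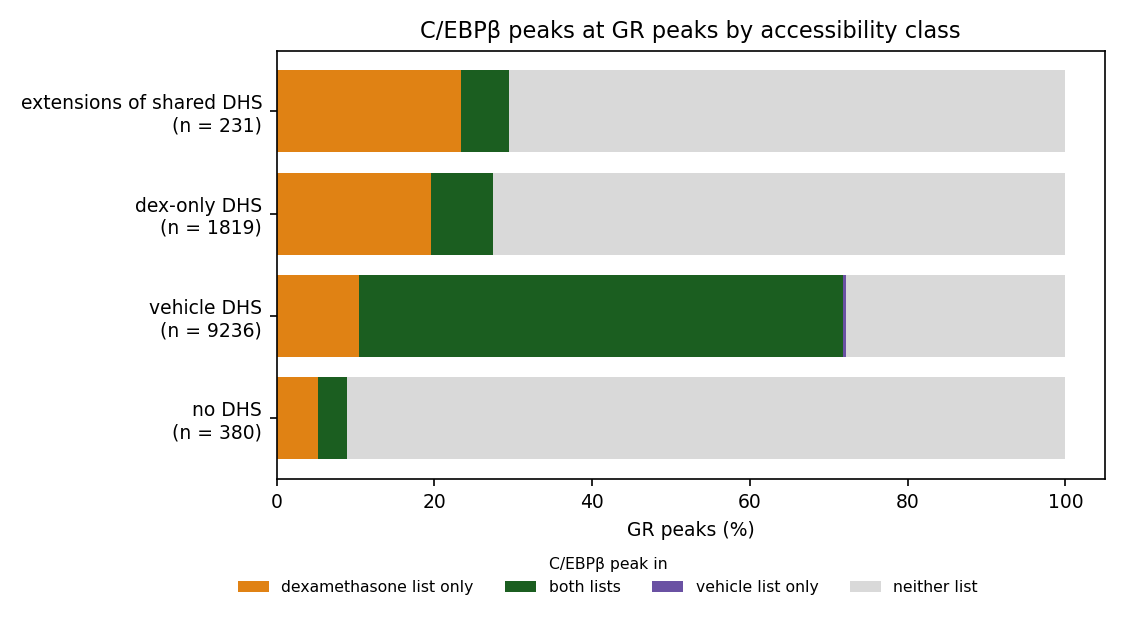
Share of GR peaks in % (x axis) with a C/EBPβ peak in the dexamethasone list only, in both lists, in the vehicle list only or in neither, for GR peaks in extensions, in dex-only DHS, in vehicle DHS and in no DHS (y axis, with the number of peaks). Extensions had 23.4% with a gained peak and 6.06% with a peak in both lists, against 10.4% and 61.5% in vehicle DHS. The gained shares are over all peaks, and 5713 of the 9236 in vehicle DHS had vehicle C/EBPβ and could not gain it. They do not compare how often peaks without vehicle C/EBPβ gained it.

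The vehicle C/EBPβ share went up inside the vehicle DHS, not at its edge. GR peaks were ordered by the distance of their centre from the edge of the vehicle DHS, from the outside of extensions to the inside of vehicle DHS. Outside, the vehicle C/EBPβ share was 4.92% beyond 300 bp (3 of 61), 5.66% at 225 to 300 bp (3 of 53), 6.25% at 150 to 225 bp (3 of 48) and 7.25% at 75 to 150 bp (5 of 69). GR peaks that straddled the edge, and so counted as in a vehicle DHS, had like shares, 8.33% with the centre outside (8 of 96) and 8.75% with the centre up to 75 bp inside (14 of 160). The share then went up to 19.3% at 75 to 150 bp inside (52 of 269), 43.6% at 150 to 225 bp, 61.9% at 225 to 300 bp and 71.9% deeper (3322 of 4619). The gained share over all GR peaks of a bin was 24.6% in the outermost (15 of 61) and 7.71% in the innermost (356 of 4619). A peak with vehicle C/EBPβ cannot gain one, and 3 of the 61 and 3322 of the 4619 had it. The lower gained share inside thus goes with the higher vehicle share and is no separate finding. A deep position needs a wide vehicle DHS, and width was not held equal along this order, which was not tested.

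The edge order also bore on the comparison with vehicle DHS. With that class limited, after seeing the data, to the 534 GR peaks whose centre was within 150 bp of the edge or outside it, dexamethasone C/EBPβ was at 29.4% in extensions and 33.1% there (odds ratio 0.841, 0.602 to 1.18), and the difference no longer passed the threshold (Fisher p = 0.353). The vehicle C/EBPβ shares were 6.06% in extensions and 14.6% in the limited class (odds ratio 0.377, Fisher p = 0.000636).

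**Figure D4:**
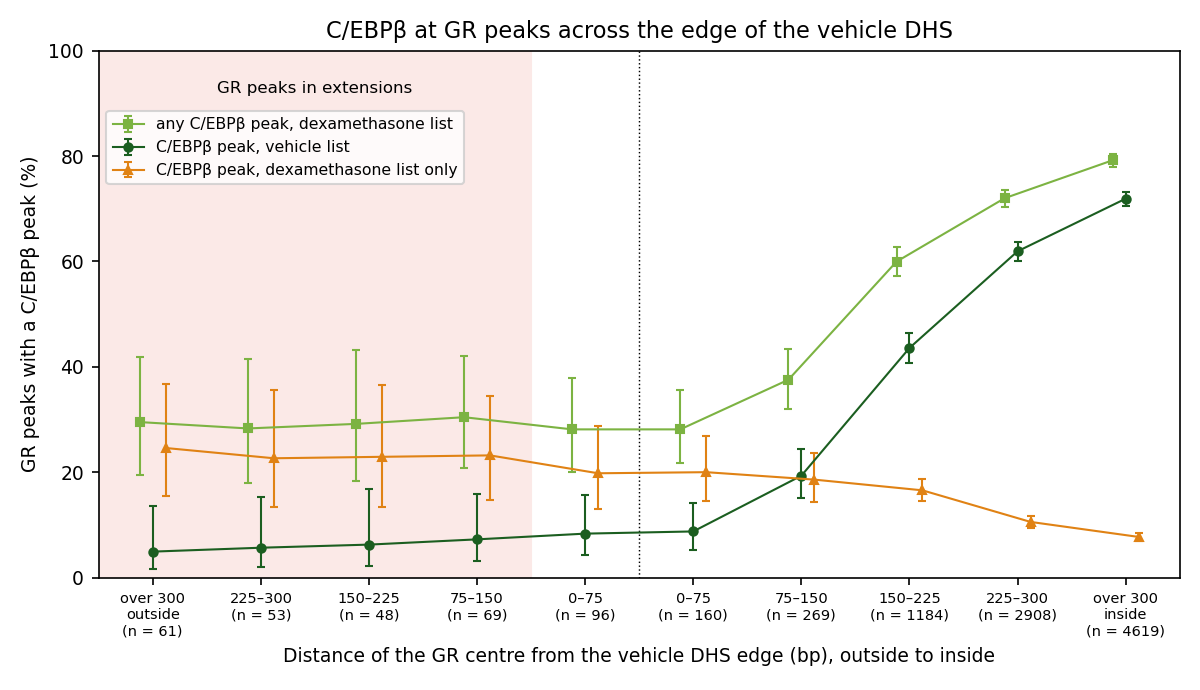
Share of GR peaks in % with a C/EBPβ peak (y axis; bars are 95% Wilson intervals) against the distance of the GR centre from the vehicle DHS edge, from outside to inside (x axis, bp, with the number of peaks per bin). The shaded bins are the 231 GR peaks in extensions, with vehicle C/EBPβ at 4.92% to 7.25%, and the share stays at 8.75% just inside the edge before it reaches 71.9% in the deepest bin.

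Where C/EBPβ was gained at a GR peak in an extension, the centres were close, though the overlap that defines a gained peak bounds their distance. The centres were a median of 18.5 bp apart (54 peaks, quartiles 7.25 and 45 bp), and 28 of the 54 (51.9%) were within 20 bp. In dex-only DHS the median was 18 bp (356 peaks), and 200 (56.2%) were within 20 bp. The gained C/EBPβ centre lay on the outer side of the GR centre in 30 cases, on the side of the vehicle DHS in 23 and at the same position in 1. The best centred was GR8200 on chromosome 12 (86620917 to 86621067) at 0 bp, in a gap of 306 bp between 2 vehicle DHS, followed by GR2261 on chromosome 4 at 1 bp. GR10130 on chromosome 16, GR2788 on chromosome 4 and GR3397 on chromosome 5 were each at 3 bp. Of these 5, all but GR8200 also had a vehicle C/EBPβ peak inside the adjoining vehicle DHS, but over all 54 this held for 16, and for 38 it did not.

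At 14 GR peaks, C/EBPβ of both lists was present although the GR peak lay outside the vehicle DHS. Their centres were a median of 17 bp from the C/EBPβ centre, a distance that the overlap bounds here too. GR1231 on chromosome 2 (103018136 to 103018286) was at 0 bp, and lay 108 bp from its vehicle DHS. GR4610 on chromosome 7 was at 3 bp, GR2771 on chromosome 4 at 11 bp, GR7186 on chromosome 11 at 12 bp and GR6108 on chromosome 9 at 14 bp. The distance of these 5 from the vehicle DHS was between 11 bp at GR4610 and 259 bp at GR6108. In 6 of the 14, vehicle C/EBPβ was present in the vehicle DHS as well.

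Extensions with a GR peak of this class held gained C/EBPβ more often than extensions without any GR peak. Extensions of at least 150 bp were compared, and a gained C/EBPβ centre lay in 56 of the 223 with a GR peak of this class (25.1%, 19.9 to 31.2) and in 69 of the 4935 without any GR peak (1.40%, 1.11 to 1.77). A further 214 extensions met only GR peaks of other classes, such as those that straddle the vehicle edge, and were left out of the comparison. Their median length was 291 bp, and 22 of them (10.3%, 6.89 to 15.1) held a gained C/EBPβ centre. The share over all 5372 such extensions was 2.74%. Those with GR were much longer, with a median of 540 bp against 212 bp, so they were compared within 10 strata of length. The odds ratio was then 6.64 (4.30 to 10.2, Mantel-Haenszel chi-square test, p = 1.01e-21, adjusted p = 3.04e-21). Without strata it was 23.6, and with a C/EBPβ centre counted up to 500 bp outside the extension 2.73 (Mantel-Haenszel chi-square p = 2.19e-09). The 25.1% is near the 24.0% of all GR peaks without vehicle C/EBPβ that had gained it, counted there by overlap. The odds ratio sets extensions with GR against those without, and no trait particular to extensions is read from it.

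The difference was seen at each length that held 20 or more extensions with GR. At 300 to 400 bp, 16.7% with GR (5 of 30) and 2.79% without (17 of 610) held a gained C/EBPβ centre. At 400 to 600 bp the shares were 23.9% with GR (26 of 109) and 3.94% without (22 of 559), and at 600 bp or more 32.1% with GR (25 of 78) and 6.77% without (13 of 192). Long extensions were also those that held a GR peak of this class most often, 28.5% of the 274 of 600 bp or more and 0.0364% of the 2744 under 225 bp, which is a description since a GR peak of 150 bp needs room outside the vehicle DHS.

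**Figure D5:**
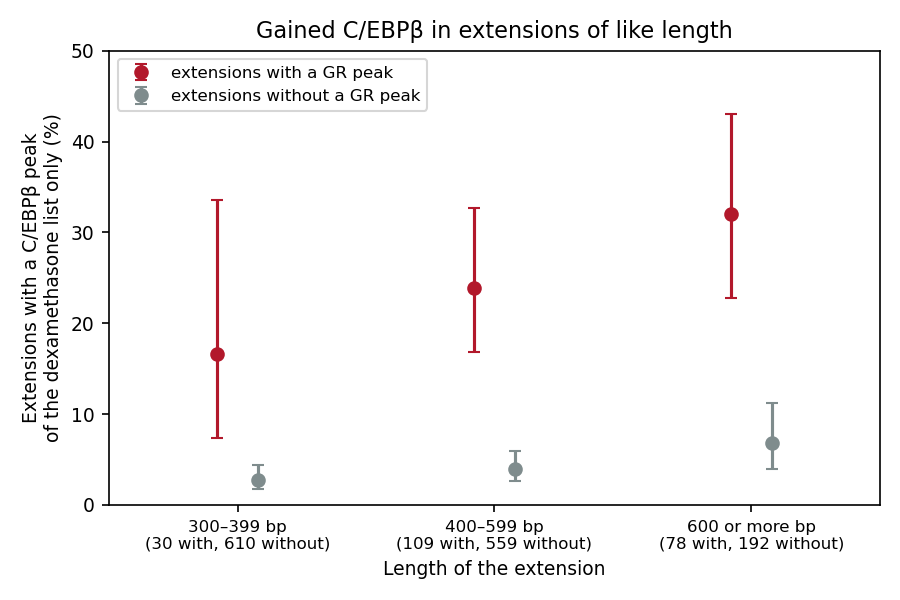
Share of extensions in % that hold the centre of a gained C/EBPβ peak (y axis; bars are 95% Wilson intervals) for extensions with a GR peak of the class and without any GR peak, in 3 classes of length in bp (x axis, with the number of extensions). The extensions with GR are at 16.7%, 23.9% and 32.1%, and those without at 2.79%, 3.94% and 6.77%.

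The opposite direction was nearly empty of GR. Vehicle DHS also reached beyond overlapping dexamethasone DHS, in 3475 stretches of 150 bp or more (872277 bp in all), against 5372 such extensions of dexamethasone DHS (1535859 bp). Only 3 GR peaks overlapped a shared vehicle DHS while lying outside every dexamethasone DHS, against the 231 of the present class. The 231 is the count that the rule gives. Of all 11666 GR peaks, 1819 lay in dex-only DHS and 380 in no DHS. The contrast of 3 with 231 is thus a description of where the GR list lies, and no finding about extensions is read from it. For C/EBPβ, a gained peak was centred in 147 extensions of dexamethasone DHS (2.74%) and a peak of the vehicle list only in 10 (0.186%). The stretches of vehicle DHS held 13 (0.374%) and 43 (1.24%). Of the 147, 56 were the extensions with a GR peak of the class given above. The dexamethasone list is also the longer, with 25392 C/EBPβ peaks against 22714, and gained or lost shares over all C/EBPβ peaks were not computed. These counts compare 1 list with another and were not tested.

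The vehicle part of the DHS that carried these GR peaks was next examined for C/EBPβ. The 231 peaks lay in 227 dexamethasone DHS. Of these, 93 (41.0%, 34.8 to 47.5) had a vehicle C/EBPβ peak in the vehicle part, as did 6089 of 8809 shared DHS whose GR peaks lay in the vehicle part (69.1%) and 11109 of 39361 shared DHS without GR (28.2%). Over all shared DHS the share was 35.7%. Within 10 strata of vehicle DHS width the odds ratio was 0.367 against DHS with GR in the vehicle part (0.276 to 0.488, Mantel-Haenszel chi-square test, p = 1.53e-12, adjusted p = 3.43e-12). Against DHS without GR it was 1.79 (1.36 to 2.35, Mantel-Haenszel chi-square test, p = 3.10e-05, adjusted p = 5.59e-05).

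Vehicle C/EBPβ was more frequent where the vehicle part also held a GR peak of its own, a difference that was not tested. A GR peak was also found in the vehicle part of 75 of the 227 DHS (33.0%), where 18.4% of all shared DHS had one, a count that uses the lists of the rule and is not tested. Counted by GR peak, the vehicle part held vehicle C/EBPβ for 50 of 76 with a GR peak there (65.8%, 54.6 to 75.5) and for 45 of 155 without (29.0%, 22.5 to 36.6). The first share is near the 69.1% of the reference for the odds ratio of 0.367, in which every DHS had GR in the vehicle part. How much of that odds ratio goes with the lack of GR there in the other DHS was not tested. When the DHS with GR in the vehicle part were left out, an alternative added after seeing the data, 28.9% of the remaining 152 and 28.2% of shared DHS without GR had vehicle C/EBPβ. The odds ratio was 1.12 (0.782 to 1.60) and no longer passed the threshold (Mantel-Haenszel chi-square p = 0.543).

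By what the vehicle part held, the 231 GR peaks fell into 4 arrangements. For 110 (47.6%) it had neither GR nor vehicle C/EBPβ, for 50 (21.6%) both, for 45 (19.5%) C/EBPβ alone and for 26 (11.3%) GR alone. Gain of C/EBPβ at the GR peak in the extension was compared by whether the vehicle part held vehicle C/EBPβ, leaving out the 14 peaks that already had it. It was found at 16 of 89 with C/EBPβ there (18.0%) and at 38 of 128 without (29.7%), an odds ratio of 0.519 (0.268 to 1.01) that missed the threshold (Fisher p = 0.0563, adjusted p = 0.0844). This comparison was chosen after seeing the data. At 90 GR peaks (39.0%) there was no C/EBPβ of either list at the peak and no vehicle C/EBPβ in the vehicle part.

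GR peaks in extensions were often near other GR peaks. Another GR centre was found within 2000 bp of 107 of the 231 (46.3%), of 303 of 1819 in dex-only DHS (16.7%) and of 2424 of 9236 in vehicle DHS (26.2%). The median distance to the nearest other GR centre was 2533 bp in extensions, 14144 bp in dex-only DHS and 7906 bp in vehicle DHS. The nearest vehicle C/EBPβ centre was a median of 1758 bp from GR centres in extensions, 9524 bp in dex-only DHS and 45 bp in vehicle DHS. These distances come from the GR list that the rule used, or depend on how near a vehicle DHS lies, and are given with no test.

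Of the 227 DHS, 4 held 2 GR peaks of the class, and in 3 of them the pair stood on both sides of the vehicle DHS. On chromosome 11 the DHS from 101221915 to 101224968 had GR7634 at 240 bp beyond one vehicle edge and GR7636 at 49 bp beyond the other. On chromosome 17 a DHS from 28565292 to 28566963 had GR10423 at 55 bp and GR10424 at 74 bp, and a DHS from 28658891 to 28660444 had GR10437 at 277 bp and GR10438 at 111 bp. The fourth, on chromosome 12 from 105632905 to 105637567, had GR8300 and GR8301 (217 bp) on the same side. Since these pairs were picked out after their values were seen, they illustrate the arrangement and support no count.

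The peaks were spread over 216 windows of 100 kb, of which 14 held at least 2 and a single window held 3. That window began at 28600000 on chromosome 17 and had 9 GR peaks. The window before it held 2 peaks of the class and 10 GR peaks, so the 5 lay among 19 GR peaks. Of those 19, 9 were in dex-only DHS, 4 in vehicle DHS and 1 in no DHS. One of the 5, GR10424, had a dexamethasone C/EBPβ peak, and none had a vehicle one, where 29.4% and 6.06% of all members did. The fifth, GR10431 (28650748 to 28650898), lay 586 bp from a vehicle DHS of 701 bp that was extended by 1121 bp. Over chromosomes, the class made up between 0.484% of GR peaks on chromosome 14 (2 of 413) and 3.17% on chromosome 17 (14 of 442).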

How the data were processed

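DNase-seq and ChIP-seq were done on dexamethasone and vehicle livers. The submitters' processing notes name CASAVA 1.8 and the build mm9. Not given in the sources used here are the aligner, the caller of peaks, its threshold and whether replicates were pooled. The 5 deposited lists hold other values than signal: the authors' positions and running identifiers only. No column of per-sample values was left unused. The files do not state whether positions count from 0. Intervals were read as half-open, and the text prints positions as deposited.

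Members and comparisons were chosen with earlier results of these data known. Overlap meant at least 1 bp. A gained C/EBPβ peak at a GR peak overlaps the dexamethasone list and no vehicle peak. In extensions it is a peak of the dexamethasone list only, counted by its centre. Shares have 95% Wilson intervals, odds ratios have Woolf intervals with two-sided Fisher's exact tests, or are Mantel-Haenszel estimates over 10 strata, and the 9 p-values were adjusted together by Benjamini-Hochberg at a threshold of 0.05. Regions on a chromosome are not independent, intervals cover counting error only, and a p-value here compares kinds of region, not dexamethasone with vehicle. Values under alternatives are not adjusted.

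Named regions were the 5 peaks farthest from the vehicle DHS, the 5 with the longest extension, 3 on each side of the threshold, the best centred on C/EBPβ (5 in both lists, 5 gained) and windows or DHS with 3 or more. DHS with 2 were added after seeing the data. Sequence, motifs and genes were not used here, since the gene and promoter tables at hand refer to another build. The scripts were tested on simulated lists, and bedtools 2.31.1 gave the same 231 peaks. Tests used statsmodels 0.14.6 and scipy 1.17.1, tables pandas 2.3.3 and numpy 2.4.6, and figures matplotlib 3.10.9, under Python 3.11.15.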

Additional observations from a re-analysis of the deposited data

How the results depend on the processing

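Of the 69 odds ratios computed under alternatives, 63 kept their direction and their side of the 0.05 threshold. With C/EBPβ counted within 500 bp, the comparison with dex-only DHS turned to 2.43 for vehicle C/EBPβ, and passed the threshold at 1.86 for dexamethasone and 1.49 for gained C/EBPβ. The wider radius takes in the adjoining vehicle DHS. The dexamethasone C/EBPβ odds ratio against dex-only DHS turned to 0.969 (Fisher p = 0.932) when that class was limited to GR peaks within 2 kb of a vehicle DHS, and neither value passed the threshold. Against vehicle DHS it missed the threshold at 0.841 when only GR peaks near the edge were used. The odds ratio of vehicle C/EBPβ against DHS without GR was 1.12 without DHS that also had GR in the vehicle part. For the 8 comparisons other than the added one, no call changed with an overlap of 75 bp, closed intervals, autosomes only, no peaks between 2 vehicle DHS, no DHS of the recurring uniform widths, or vehicle DHS widened by 100 bp. Leaving out strata was run for the 3 stratified comparisons, and 50 strata and extensions of at least 75 or 300 bp for gained C/EBPβ in extensions only, again with no changed call. Gained C/EBPβ in extensions with GR against those without ranged from 2.73 to 23.6. The class itself had 316 peaks with an overlap of 75 bp, 146 when vehicle DHS were widened by 100 bp, and 220 to 230 otherwise. No alternative asked a dexamethasone DHS to share more than 1 bp with a vehicle DHS to count as shared. No paired analysis was possible because each treatment has 1 list per assay with no replicate values. Leaving out a replicate was not possible for the same reason, and the lists give no depth.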
